A study of Mus musculus with 2 samples.

Results

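*Dlx6* and *Msx2* smooth muscle cells (SMCs) of the mouse thoracic aorta are described here, cells in which RNA of the homeobox genes *Dlx6* or *Msx2*, or of the antisense transcript *Dlx6os1*, was captured. There were 364 of them among 2226 SMCs that passed the gate and 15210 cells deposited, 196 from aorta 1 and 168 from aorta 2. A cell entered the gate with 3000 to 25000 unique molecular identifiers (UMIs, the barcodes by which captured RNA molecules are counted), over 200 genes, under 10% mitochondrial UMIs, at least 5 UMIs of *Myh11*, *Cnn1* and *Lmod1* together, at least 5 UMIs of eGFP and no UMI of *Pecam1*, *Cdh5*, *Ptprc* or *Pdgfra*. A member held at least 1 UMI of *Dlx6*, *Dlx6os1* or *Msx2* and none of *Hand2*, *Hand2os1*, *Tbx20*, *Hoxa7*, *Hoxb6*, *Hoxb7* or *Hoxb8*. The cells were thus selected on measured UMIs of 18 genes, which were left out of every test.

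Both aortas came from GFPiSMC mice (*Myh11-CreERT2*.mT/mG) on C57BL/6J, the strain named in the labels, and there was no other group. Tamoxifen had been injected i.p. at 1 mg/d for 5 days when the mice were 3 weeks old, and tissue was collected at 12 weeks. The Cre, driven by *Myh11* regulatory sequence, turns the mT/mG reporter from tdTomato to eGFP, so the eGFP limit of the gate keeps cells that recombined after tamoxifen, and the Cre transgene is carried on the Y chromosome, which restricts the model to males. Each aorta was digested in the cold, its viable single cells were sorted with no choice by eGFP, and 1 droplet library with 3′ chemistry was made from it. The labels do not say from which stretch of the thoracic aorta a cell came.

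*Dlx6* and its neighbor *Dlx5* encode distal-less homeobox transcription factors that pattern the pharyngeal arches of the embryo, and *Msx2* encodes a homeobox repressor induced by bone morphogenetic proteins (BMPs). The media of the thoracic aorta is built by SMCs of several embryonic origins: neural crest in the ascending aorta and arch, second heart field near the root and paraxial mesoderm in the descending aorta. Adult SMCs keep part of this history in their expressed transcription factors, including *Hand2* and *Tbx20* of the heart fields and the *Hox* genes of the trunk.

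On mm10, the build of the files, *Dlx6* (ENSMUSG00000029754) lies on the plus strand at chr6:6863334-6868568 and *Dlx5* on the minus strand at chr6:6877805-6882085. *Dlx6os1* (ENSMUSG00000090063) is an antisense RNA at chr6:6820189-6871592 on the minus strand, covers all of *Dlx6* and ends before *Dlx5*. *Msx2* (ENSMUSG00000021469) is at chr13:53466884-53473074 on the minus strand. The strand setting of the counting is not given in the sources used here, so UMIs of *Dlx6* and *Dlx6os1* may not be fully separate, while *Dlx5* shares no sequence with a gene of the rule.

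Sequence upstream of 4 genes is shown, taken from RefSeq (GRCm38.p6): 1 start of the choosing gene *Dlx6os1*, the strongly raised *Prss12*, both starts of *Postn*, the most abundant of the 15 most reduced genes, and *Mylk4*, which was reduced but is not among those 15. Each line holds the 250 bases before the start on the gene's own strand, and capitals mark the homeobox core motifs TAATTA or TAATTG on either strand (CAATTA is the second motif read on the other strand).
Dlx6os1 (chr6:6861684-6861933, minus): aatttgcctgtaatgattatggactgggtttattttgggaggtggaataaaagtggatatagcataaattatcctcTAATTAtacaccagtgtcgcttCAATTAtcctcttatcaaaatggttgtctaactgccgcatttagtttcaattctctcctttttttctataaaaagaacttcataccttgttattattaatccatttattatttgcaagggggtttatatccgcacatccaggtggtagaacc
Prss12 (chr3:123446663-123446912, plus): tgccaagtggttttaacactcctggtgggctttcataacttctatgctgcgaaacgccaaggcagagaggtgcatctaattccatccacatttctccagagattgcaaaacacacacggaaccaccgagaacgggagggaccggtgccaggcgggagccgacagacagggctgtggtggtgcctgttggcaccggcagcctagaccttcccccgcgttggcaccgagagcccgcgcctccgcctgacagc
Postn, upstream start (chr3:54359017-54359266, plus): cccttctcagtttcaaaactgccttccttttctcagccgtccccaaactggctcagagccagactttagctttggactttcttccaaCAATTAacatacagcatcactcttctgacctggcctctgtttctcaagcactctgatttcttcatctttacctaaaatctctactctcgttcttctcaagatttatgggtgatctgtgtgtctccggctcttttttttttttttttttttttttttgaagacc
Postn, downstream start (chr3:54360857-54361106, plus): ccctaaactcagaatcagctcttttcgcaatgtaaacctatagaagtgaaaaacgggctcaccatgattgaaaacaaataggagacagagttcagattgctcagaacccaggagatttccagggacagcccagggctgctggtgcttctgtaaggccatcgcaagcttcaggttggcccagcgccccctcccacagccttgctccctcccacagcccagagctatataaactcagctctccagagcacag
Mylk4 (chr13:32783965-32784214, minus): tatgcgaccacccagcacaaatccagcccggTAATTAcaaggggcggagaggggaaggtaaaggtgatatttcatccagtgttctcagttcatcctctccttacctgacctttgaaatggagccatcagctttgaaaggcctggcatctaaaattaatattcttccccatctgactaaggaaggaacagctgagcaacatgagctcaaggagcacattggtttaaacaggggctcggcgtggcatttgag
Of the 32851 RefSeq start windows of this length, 4.84% held TAATTA, 7.17% held TAATTG and 11.3% held either. Of the 15 most raised genes named below, 9 were in the table, with 14 windows, and none of these windows held either motif. Of the 15 most reduced genes all were in the table, and 3 held a motif in at least 1 window, for *Postn* in the upstream window and not in the downstream one. Among all genes called and expressed at 20 CPM (UMIs per 1000000 UMIs of the class) or more, 8.06% of the windows of raised genes and 7.24% of those of reduced genes held either. *Dlx6*, *Dlx5*, *Adamtsl1* and *Lamc3* had no entry.

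The members made up 15.01% of gate SMCs in aorta 1 (196 of 1306, exact 95% binomial interval 13.1 to 17.1%) and 18.3% in aorta 2 (168 of 920, 15.8 to 20.9%). Intervals of this kind cover counting error only. The share depends on the rule: its mean over the aortas was 16.6%, but 9.61% when at least 2 choosing UMIs were asked and 10.6% when the rule was applied to cells thinned to 3000 UMIs. SMCs with *Hand2* or *Tbx20* RNA alone were 30.7% and 19.1%, those with *Hox* RNA alone 18.2% and 22.8%, those with UMIs of more than 1 of the 3 gene groups 3.45% and 3.80%, and those with no regional UMI 32.6% and 36.0%. Member shares were highest at intermediate depth. In aorta 1 and aorta 2 they were 22.9% and 24.2% of cells with 5000 to 7500 UMIs, and 9.09% and 9.75% of cells with 10000 to 15000 UMIs. Members held a median of 7989 and 7686 UMIs per cell against 8862.5 and 8548 in the other SMCs, and the median mitochondrial share was 4.55% and 4.67% against 5.01% and 5.19%. The doublet caller marked 4 of the 364 members.

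As a description of the values that chose them, the members carried *Dlx6* at 102 and 100.1 CPM in aorta 1 and aorta 2, *Dlx6os1* at 91.2 and 96.2 CPM and *Msx2* at 102 and 85.5 CPM. A *Dlx6* or *Dlx6os1* UMI without *Msx2* was found in 173 members, *Msx2* alone in 66 and both in 125. Most had few such UMIs: 152 members held exactly 1, 75 held 2 and 137 held 3 or more, with a highest sum of 10. *Myh11* was at 3640 and 3663 CPM and *Cnn1* at 1696 and 1677 CPM in members, but both are genes of the gate and do not bear on the label of SMC. Genes outside the gate such as *Acta2* (12474 and 13802 CPM) and *Tagln* (6700 and 7036 CPM) were abundant, which goes with that label.

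Expression was compared between the UMI sums of the members and of the other 1862 SMCs of the gate, 1 sum per class and aorta, by the quasi-likelihood test of edgeR, and p-values of 11379 genes were adjusted together (Benjamini-Hochberg). A gene was called at an adjusted p under 0.05 with a log2 fold change over 1 in size. A sum cannot tell fewer expressing cells from less RNA per cell. The log2 fold changes include a scaling between sums (TMM) that the CPM leave out. They can therefore differ from the ratio of the printed CPM. Of the genes tested 8.45% were called, 512 (4.5%) higher and 449 (3.95%) lower in members, and without the size limit 1036 (9.1%) were higher and 1183 (10.4%) lower. The median log2 fold change of all genes was 0.0067.

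**Figure D1:**
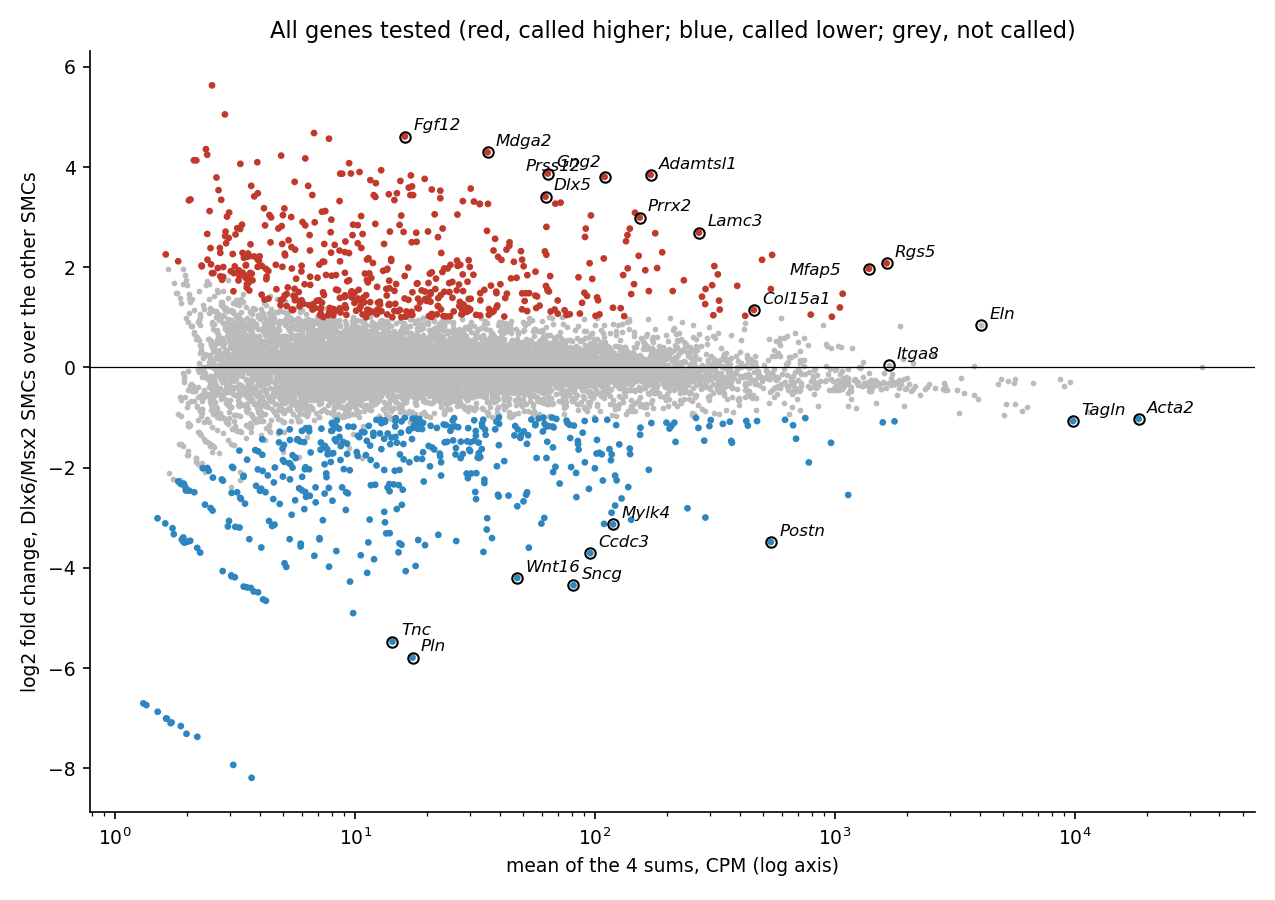
Log2 fold change of the *Dlx6* and *Msx2* SMCs over the other SMCs (y axis) against the mean level of the 4 sums in CPM (x axis, log scale) for the 11379 genes tested, with called genes in red and blue. *Dlx5* and *Adamtsl1* lie near the upper edge, *Postn* and *Mylk4* near the lower, and the points below -6 are genes with no UMI in members, whose fitted values depend on a prior count.

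The genes with the largest increases were low in the other SMCs and not absent from them. *Adamtsl1*, which encodes a secreted ADAMTS-like protein of the extracellular matrix (ECM), was at 338 and 303 CPM in members of aorta 1 and aorta 2 and at 17.8 and 22.3 CPM in the other SMCs, a log2 fold change of 3.85 ± 0.12 (SE, n = 2 sums per class, adjusted p = 1.7e-11). *Prss12*, the secreted serine protease neurotrypsin, was at 190 and 222 CPM against 12.1 and 14.1 CPM (3.80 ± 0.13). *Gng2*, a G protein gamma subunit, was at 114 and 126 CPM against 7.02 and 7.44 CPM (3.87 ± 0.15). In all 3 genes both member sums lay far above both sums of the other SMCs, and the aortas were close to each other within a class. The genes were chosen for large differences with the same direction in both aortas, so their separation was largely set by that choice. *Adamtsl1* shares sequence on the same strand with *Sh3gl2*, which gave 45 UMIs in members and 9 in the others. A choosing UMI was held by 228 and 192 gate SMCs, against 196 and 168 members. The rest also held *Hand2*, *Tbx20* or *Hox* UMIs and were counted among the other SMCs. In cells with UMIs of more than 1 gene group, *Adamtsl1* was at 99.2 and 131 CPM.

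Among called genes that reached 20 CPM in the members of both aortas, the largest increase belonged to *Fgf12*, an intracellular fibroblast growth factor homolog that binds sodium channels, at 27.9 and 34.4 CPM against 1.10 and 1.08 CPM (log2 fold change 4.61 ± 0.31, adjusted p = 2.6e-08). *Mdga2*, an adhesion molecule of neurons, followed at 70.7 and 65.7 CPM against 2.71 and 3.56 CPM (4.29 ± 0.20). The other genes of the 15 largest increases under this limit, which leaves out scarcer genes such as *Bmp7*, *Dlx1* and *Dlx2*, were the kinases *Pak7* and *Stk32a*, the BMP antagonist *Chrdl2*, the homeobox gene *Cux2*, the ErbB ligand *Nrg2*, the adhesion molecule *Negr1*, the keratin *Krt15*, the orphan receptor *Gpr45*, *Nt5dc2* and the noncoding *Gm50410*, with log2 fold changes from 3.53 to 3.94. Of these, *Chrdl2* (42.8 and 21.4 CPM) and *Cux2* (49.6 and 23.7 CPM) stood higher in the members of aorta 1 than in those of aorta 2, and were low in both sums of the other SMCs. *Krt15*, at 38.5 and 24.4 CPM against 3.71 and 0.31 CPM, did not pass with DESeq2 (adjusted p = 0.066).

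Among the largest decreases, *Postn*, the matricellular protein periostin, was the most abundant, at 109 and 87.8 CPM in members against 1031 and 933 CPM in the other SMCs (log2 fold change -3.48 ± 0.11, adjusted p = 1.7e-11). *Sncg*, gamma-synuclein, was at 12.4 and 3.82 CPM against 153 and 156 CPM (-4.35 ± 0.22). *Wnt16*, a Wnt ligand, was at 6.20 and 4.58 CPM against 93.3 and 85.4 CPM (-4.20 ± 0.21). That these sums did not overlap between the classes was again largely set by the choice of genes.

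*Pln*, which encodes phospholamban, the inhibitor of the sarcoplasmic calcium pump, gave 2 UMIs in all members and 589 in the other SMCs, a ratio of levels of 52.4 (counting interval 14.4 to 434). *Tnc*, the matricellular protein tenascin C, gave 2 against 459 UMIs, a ratio of 40.8 (11.2 to 338). Both fell past the threshold (adjusted p = 4.9e-06 and 2.5e-07). *Cep85l*, which overlaps *Pln* on the other strand, gave 67 UMIs in members and 357 in the others. Among called genes with at least 20 CPM in the other SMCs of both aortas, the remaining genes of the 15 largest decreases were *Dgkb*, *Tesc*, *Ccdc3*, *Itih2*, *Lgals3* (galectin-3), *Tnnt2*, *Igfbp2*, *Olfml2a*, *Cobll1* and *Gm13861*, with log2 fold changes from -4.07 to -3.44. *Gm13861* is a noncoding gene antisense to the abundant contractile gene *Cald1*, and its UMIs may not be separate from those of *Cald1*.

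Of the other DLX genes, *Dlx5*, *Dlx1* and *Dlx2* were tested and all 3 rose. *Dlx5* was at 114 and 115 CPM in members against 9.13 and 10.1 CPM in the other SMCs (log2 fold change 3.41 ± 0.14, adjusted p = 1.2e-10), while *Dlx1* (14.3 and 19.1 CPM) and *Dlx2* (16.1 and 19.9 CPM) were between 0.77 and 1.08 CPM in the others. Of 27 listed transcription factors of the neural crest and pharyngeal arches that were tested, 13 were higher, 3 lower and 11 did not pass, with a median log2 fold change of 0.90 (13 higher and 5 lower with the aorta as a block, 13 and 1 with DESeq2).

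*Prrx2*, a paired-related homeobox gene of the arch mesenchyme, had the highest level of the 4 factors with the largest differences, at 298 and 253 CPM against 25.9 and 36.7 CPM (log2 fold change 2.99 ± 0.14). *Tbx3*, a T-box repressor, was at 20.5 and 19.1 CPM against 1.40 and 0.77 CPM (3.90 ± 0.36), and *Pax9*, a paired-box factor of the pharyngeal pouches and arches, at 19.2 and 19.1 CPM against 2.21 and 1.86 CPM (3.02 ± 0.32). *Barx1*, a homeobox gene, reached 24.2 CPM in members of aorta 1 and 7.64 CPM in aorta 2 against 2.01 and 0.62 CPM. Other higher genes included *Snai1*, *Foxd2*, *Tfap2b*, *Sox9*, *Foxf1*, *Osr1*, *Prrx1* and *Meis1*, and the lower ones *Twist2*, *Tbx2* and *Nr2f2*. *Msx1*, the paralog of *Msx2*, was at 30.4 and 33.6 CPM against 15.5 and 13.0 CPM (0.96 ± 0.20, adjusted p = 0.0020).

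Of 5 tested factors of the heart fields and outflow tract, 1 was lower, *Tbx18* (log2 fold change -0.86 ± 0.17), and with the aorta as a block 1 was higher and 2 lower. Of 10 *Hox* genes outside the rule, 2 were higher and 4 lower (2 and 1 with DESeq2). *Hoxa5* and *Hoxb5* were lower by 1.32 ± 0.30 and 2.39 ± 0.56 on the log2 scale, *Hoxc6* gave 1 UMI in all members against 64 (ratio 11.4, counting interval 1.97 to 457), and *Hoxd4* was higher by 2.27 ± 0.51 at 7.44 and 4.58 CPM. *Hoxc6* and *Hoxb5* did not pass with DESeq2 (adjusted p = 0.14 and 0.50). Cells with UMIs of 4 *Hox* genes had been removed from the members by the rule.

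**Figure D2:**
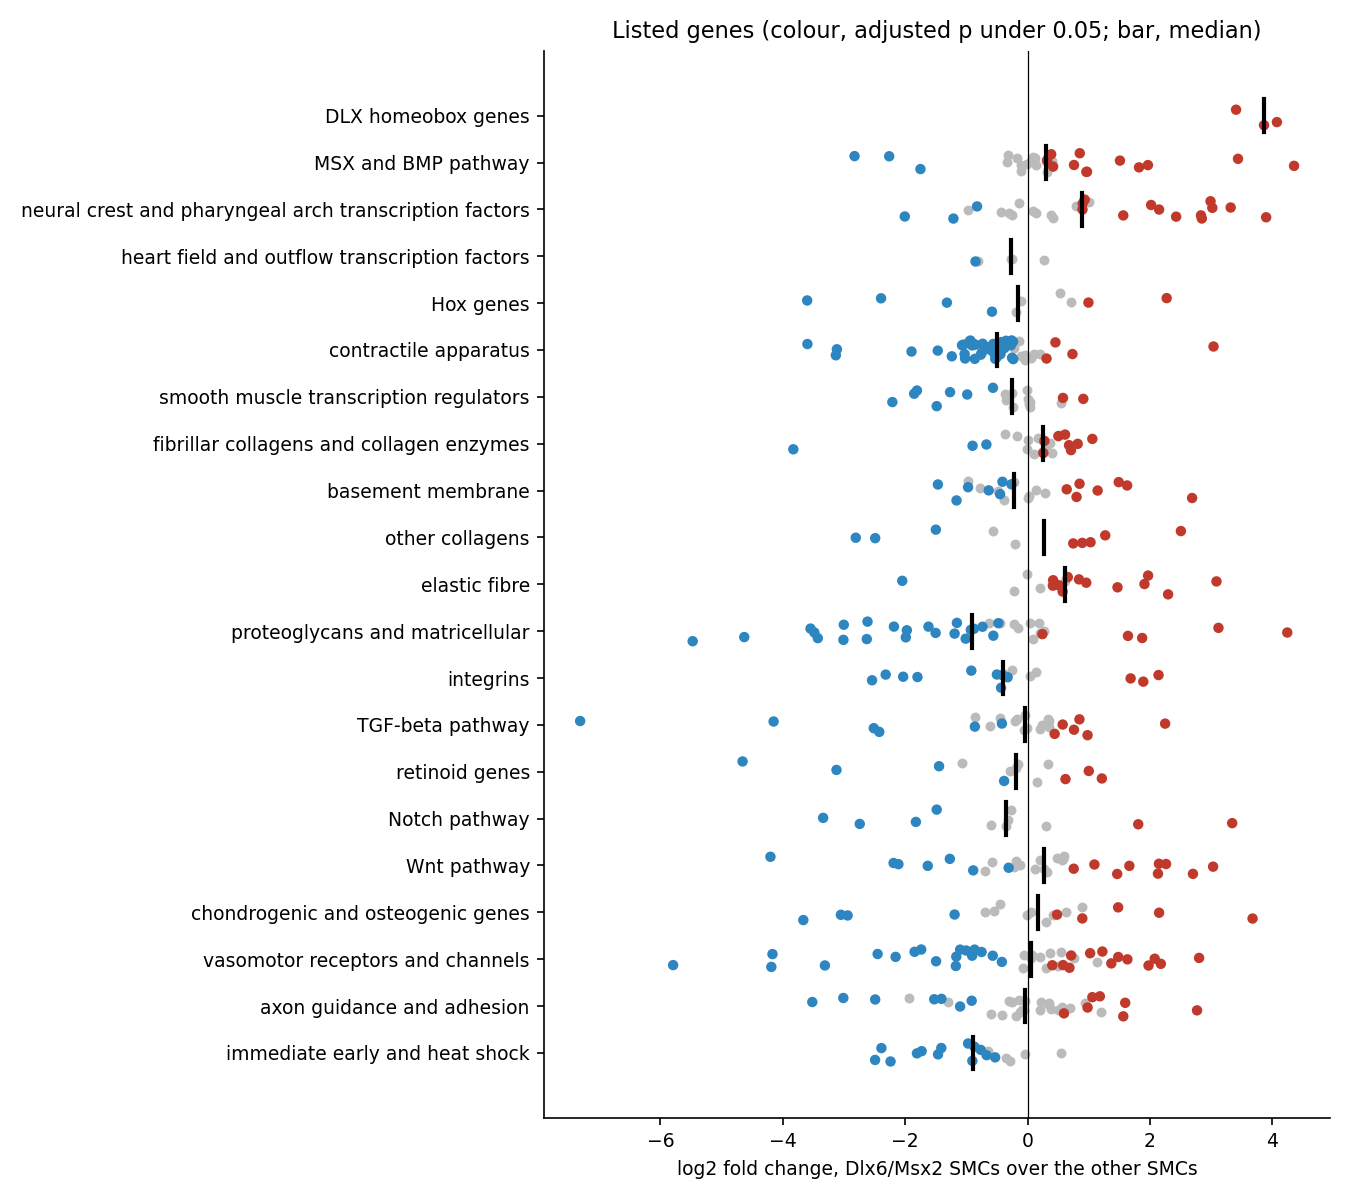
Log2 fold change of the members over the other SMCs (x axis) for every tested gene of 21 lists (rows), with genes at an adjusted p under 0.05 colored and the median of each list as a bar. The DLX genes lie farthest to the right, at a median of 3.87, and the proteoglycan and stress lists lie to the left, at -0.90 and -0.89.

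Signaling genes moved in both directions. BMPs are secreted ligands of the TGF-β superfamily, and of 28 genes of the MSX and BMP list 12 were higher, 3 lower and 13 did not pass (median 0.31). *Nog*, a secreted BMP antagonist, was at 13.0 and 11.5 CPM against 0.80 and 1.24 CPM (log2 fold change 3.44 ± 0.41). *Bmp7* gave 14 UMIs in members and 3 in the others, a ratio of 26.2 (counting interval 7.32 to 142). *Fst*, the antagonist follistatin, was lower at 2.48 and 0.76 CPM against 12.3 and 8.99 CPM (-2.83 ± 0.51).

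Of 29 Wnt pathway genes 9 were higher and 7 lower. *Frzb*, a secreted Wnt inhibitor, was at 162 and 186 CPM against 20.8 and 15.96 CPM (3.03 ± 0.14), and the ligand *Wnt5b* at 28.5 and 27.5 CPM against 3.61 and 4.03 CPM (2.70 ± 0.25). *Ror2*, a Wnt receptor at 4.96 and 5.35 CPM in members, passed as higher and did not with DESeq2 (adjusted p = 0.094). Of 11 Notch pathway genes 2 were higher and 4 lower. *Hey2*, a target of Notch in arterial SMCs, was at 5.58 and 3.06 CPM against 39.6 and 40.6 CPM (-3.34 ± 0.26), and the receptor *Notch3* at 1.86 and 7.64 CPM against 26.2 and 26.97 CPM (-2.74 ± 0.33). *Hes1*, another target, was lower by 1.82 ± 0.28 on the log2 scale, and *Dll1*, a Notch ligand, was higher at 4.96 and 5.35 CPM against 0.60 and 0.15 CPM.

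Of 13 retinoid genes 3 were higher and 4 lower, and 0 were higher and 4 lower with DESeq2 or with thinned cells. The receptor gene *Rarb* gave 1 UMI in members and 136 in the others, a ratio of 24.2 (counting interval 4.27 to 963), and *Rbp4*, the carrier of retinol in plasma, was at 10.5 and 42.0 CPM against 199 and 184 CPM (-3.12 ± 0.26). *Dhrs3*, a retinaldehyde reductase, was lower by 1.45 ± 0.14 on the log2 scale. *Cyp26b1*, which degrades retinoic acid, was higher by 1.21 ± 0.35 and did not pass with DESeq2 (adjusted p = 0.12). Of 25 genes of the TGF-β pathway 6 were higher and 6 lower, with a median of -0.03. *Lrrc32*, which holds latent TGF-β on the cell surface, was lower by 2.51 ± 0.35. *Inhbb* had no UMI in members and 66 in the others, hence was at least 3.91-fold lower against a floor of 3 counts over the class. *Gdf15* gave 1 UMI in members against 96 (ratio 17.1, counting interval 2.99 to 682) and did not pass with DESeq2 (adjusted p = 0.059).

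The contractile program was reduced in level but retained. Of 53 tested genes of the contractile apparatus 40 were lower, 4 higher and 9 did not pass, with a median log2 fold change of -0.50. *Acta2*, smooth muscle α-actin, was at 12474 and 13802 CPM in members against 23728 and 23719.7 CPM (-1.03 ± 0.07, adjusted p = 2.4e-08), and *Tagln*, transgelin, at 6700 and 7036 CPM against 12949 and 12583 CPM (-1.07 ± 0.07). *Mylk4*, a myosin light chain kinase family member, was at 26.1 and 28.3 CPM against 204 and 217 CPM (-3.13 ± 0.13).

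*Tnnt2*, cardiac troponin T, was at 11.8 and 6.11 CPM against 135 and 59.2 CPM (-3.60 ± 0.47), and *Des*, the intermediate filament desmin, at 18.6 and 8.40 CPM against 134 and 77.95 CPM (-3.12 ± 0.33). For both, the other SMCs of aorta 1 stood well above those of aorta 2, and both lay above both member sums. *Casq2*, the sarcoplasmic calcium-binding protein calsequestrin, was higher at 10.5 and 7.64 CPM against 1.20 and 0.62 CPM. Of 19 transcription regulators of smooth muscle 7 were lower and 2 higher. *Ebf1* was at 54.0 and 57.3 CPM against 184 and 171 CPM (-1.85 ± 0.12), and *Foxs1*, *Klf2* and *Heyl* were lower by 2.21, 1.81 and 1.48 on the log2 scale.

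Receptors and channels of vascular tone split between the directions, 13 of 42 higher and 18 lower. The 4 with the largest differences, *Pln*, *Kcnq5*, *P2ry2* and *P2rx1*, were all lower: *Kcnq5* and *P2ry2*, a potassium channel and a nucleotide receptor, gave 1 UMI each in members against 98 and 97 (ratios 17.4, 3.06 to 696, and 17.3, 3.03 to 689) and did not pass with DESeq2 (adjusted p = 0.053 and 0.056), and *P2rx1*, an ATP-gated channel, was at 2.48 and 3.06 CPM against 24.98 and 23.4 CPM (-3.31 ± 0.32). The higher ones included *Rgs5*, a regulator of G protein signaling, at 3160 and 2267 CPM against 533 and 607 CPM (2.08 ± 0.12). *Kcnj8* and *Abcc9*, the 2 subunits of the vascular ATP-sensitive potassium channel, were at 229 and 217 CPM against 43.4 and 58.0 CPM (1.98 ± 0.12) and at 206 and 186 CPM against 110 and 123 CPM (0.58 ± 0.10).

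*Rgs5*, *Kcnj8* and *Abcc9* are also used as markers of pericytes and small-vessel mural cells, and that list summed to 3964 and 3092 CPM in members against 1125 and 1218 CPM. Its defining markers *Higd1b* and *Vtn* had no UMI in members, as in the *Hox* class, and *Vtn* was also at 0 in the *Hand2* or *Tbx20* class and in the other SMCs of aorta 1, while *Notch3* and *Cspg4* of the same list were lower. Of the 6 tested genes 3 were higher and 2 lower.

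Elastic fibers, cross-linked elastin laid on fibrillin microfibrils, are the main load-bearing element of the aortic media, and of 17 tested genes 12 were higher, 1 lower and 4 did not pass (median 0.61). *Eln* was at 5366 and 5516 CPM in members against 2821 and 2553 CPM (log2 fold change 0.84 ± 0.07, adjusted p = 5.5e-07). *Mfap5*, a microfibril-associated glycoprotein, was at 2253 and 2266 CPM against 481 and 540 CPM (1.97 ± 0.08). *Fbln1*, a fibulin, was at 272 and 259.7 CPM against 30.2 and 24.5 CPM (3.09 ± 0.12), and *Ltbp2*, a latent TGF-β binding protein of microfibrils, at 368 and 277 CPM against 57.4 and 59.4 CPM (2.30 ± 0.12). *Fbln2* alone was lower, at 9.30 and 1.53 CPM against 23.2 and 18.9 CPM.

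Basement membrane genes, which encode the laminin and type IV collagen sheet around each SMC, were 7 higher and 7 lower of 23. *Lamc3*, a laminin γ chain, was at 504 and 448 CPM against 58.7 and 73.0 CPM (2.69 ± 0.11, adjusted p = 1.0e-10). *Smoc1* was at 662 and 553 CPM against 158 and 192 CPM (1.63 ± 0.10), and *Lama2*, a laminin α chain, at 148 and 127 CPM against 43.8 and 42.8 CPM (1.49 ± 0.11). *Col15a1*, a basement membrane–associated collagen, was at 656 and 655 CPM against 256 and 269 CPM (1.15 ± 0.08), while its relative *Col18a1* was lower by 0.41 ± 0.08. *Nid1*, nidogen, was lower by 1.46 ± 0.31.

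Fibrillar collagens and their enzymes were 8 higher and 3 lower of 23, with *Col27a1* and *Col1a2* higher by 1.06 ± 0.17 and 0.82 ± 0.07 and the prolyl hydroxylase *P3h2* lower by 3.83 ± 0.42. *Pcolce* was lower by 0.90 ± 0.28 and did not pass with DESeq2 (adjusted p = 0.18). Of 10 other collagens 5 were higher and 3 lower, led by *Col23a1* at 29.2 and 33.6 CPM against 5.52 and 3.87 CPM. *Col8a1* (2 UMIs in members against 72, ratio 6.40, counting interval 1.71 to 53.9), *Col19a1* and *Col16a1* were lower, and none of the 3 passed with DESeq2 (adjusted p from 0.059 to 0.16).

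Proteoglycans and matricellular proteins were mostly reduced, 22 of 36 lower and 5 higher, with a median log2 fold change of -0.90. Beside *Tnc*, *Postn* and *Igfbp2*, the gene *Ccn4* gave 1 UMI in members and 135 in the others (ratio 24.0, counting interval 4.24 to 956). *Tnn*, tenascin N, was higher and rested on 13 UMIs in members and 3 in the others, a ratio of 24.4 (counting interval 6.69 to 133). Of 16 integrin genes 9 were lower and 3 higher. *Itga5*, the fibronectin receptor subunit, was at 27.3 and 25.2 CPM against 121 and 111 CPM (-2.32 ± 0.14), *Itgbl1* was lower by 2.54 ± 0.16 and *Itga4* by 2.03 ± 0.49 on the log2 scale, and *Itgb8*, a subunit of an integrin that activates TGF-β, was at 43.4 and 55.8 CPM against 9.53 and 10.2 CPM (2.14 ± 0.19). *Itga8*, the abundant α8 integrin of SMCs, was at 1809 and 1792 CPM against 1526 and 1559 CPM, and after the TMM scaling it did not pass (0.05 ± 0.07, adjusted p = 0.72).

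Of 18 genes of cartilage and bone formation 5 were higher and 4 lower. *Runx2*, the osteoblast transcription factor, was at 26.7 and 19.1 CPM against 1.81 and 1.24 CPM (3.68 ± 0.34, adjusted p = 7.0e-07), *Sox9* was also higher, and *Sox6* was at 1.86 and 0.76 CPM against 17.5 and 13.3 CPM (-3.66 ± 0.48). *Tnfrsf11b*, osteoprotegerin, and *Phex* were lower by 3.05 and 2.94 on the log2 scale. Guidance and adhesion genes were 7 higher and 7 lower of 36, with *Mdk*, the growth factor midkine, at 161 and 162 CPM against 18.3 and 24.3 CPM (2.77 ± 0.13), *Sema3a* at 3 UMIs in members against 173 (ratio 10.3, counting interval 3.45 to 50.2), and *Ntn4*, a netrin, lower by 2.49 ± 0.36. *Sema6a*, at 1 UMI against 43 (ratio 7.65, 1.30 to 309), did not pass with DESeq2 (adjusted p = 0.35).

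Early response and heat shock genes were lower in members, 13 of 18, with none higher (1 higher and 14 lower with the aorta as a block, 0 and 10 with DESeq2). *Atf3* was at 49.0 and 49.6 CPM against 315 and 136 CPM (-2.39 ± 0.33), and *Fos* at 20.5 and 5.35 CPM against 66.7 and 45.7 CPM (-2.24 ± 0.32). *Egr1* was lower by 1.81 ± 0.32 on the log2 scale, and *Egr3* gave 2 UMIs against 58 (ratio 5.16, counting interval 1.37 to 43.6). *Fos*, *Egr1* and *Egr3* did not pass with DESeq2 (adjusted p = 0.072, 0.44 and 0.30). These genes respond to tissue handling, and their part in the other differences was not tested.

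The 12 fibroblast genes summed to 839 and 906 CPM in members against 1236 and 1102 CPM, with 8 of 11 tested lower, *Col14a1* higher and *Pdgfra* at 0 by the rule. *Lum*, *Ly6a* and *Dpt* were lower by 3.01 ± 0.30, 2.66 ± 0.43 and 2.39 ± 0.36 on the log2 scale, and *Dcn* was at 59.5 and 93.2 CPM against 257 and 148 CPM. The 7 erythroid genes summed to 33.5 and 61.1 CPM against 575 and 89.0 CPM, and all 4 tested were lower. The class without a regional UMI in aorta 1 carried 1356 CPM of them, and 3 of the 4 did not pass with DESeq2.

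Leukocyte genes summed to 132 and 54.2 CPM in members against 175 and 70.7 CPM, and none of 8 passed (5 were lower with the aorta as a block). Endothelial genes summed to 184 and 267 CPM against 202 and 251 CPM, with 1 of 4 tested higher, *Eng* (1 higher and 1 lower with the block). Of 6 mesothelial genes *Krt19* was higher and *Muc16* lower, and neither passed with DESeq2 (adjusted p = 0.14 and 0.24). Cardiomyocyte genes summed to 55.2 and 44.3 CPM against 241 and 141 CPM, and *Tnnt2*, *Pln* and *Ryr2* (32.9 and 33.6 CPM against 51.1 and 47.6 CPM) were lower, with *Myh6*, *Nppa* and *Nppb* at 0 in both member sums. The 8 adipocyte genes summed to 50.2 and 35.1 CPM against 30.8 and 41.1 CPM, with 7 of them at 0 in members, and neural and Schwann genes to at most 5.52 CPM in any of the 4 sums.

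To see where the members stood among the regional classes, they were compared with each class in a fit of 10 sums (5 classes in each aorta, 10608 genes). All comparisons share the member sums, so they are not independent. Against SMCs with *Hand2* or *Tbx20* RNA, 503 genes were called higher in members (4.74% of those tested) and 396 lower (3.73%). Against *Hox*-positive SMCs 524 were higher (4.94%) and 420 lower (3.96%), and against SMCs with no regional UMI 342 were higher (3.22%) and 328 lower (3.09%). Of the 10608 genes, 283 were higher and 251 lower in all 3 comparisons, an overlap to which the shared member sums contribute. Against the *Hand2* or *Tbx20* class and the *Hox* class, 1 gene was called in opposite directions.

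All 15 leading raised genes were called higher against each class, although *Krt15* did not pass against the *Hox* and no-UMI classes with DESeq2 (adjusted p = 0.10 and 0.65). These genes were ranked on the same member sums against the union of these classes, so that count was largely set by the ranking and is a description. The 15 reduced genes, ranked in the same way, were called lower against each class with 1 exception, *Tnnt2* against the *Hox*-positive SMCs (12.5 and 23.4 CPM, log2 fold change -1.08, adjusted p = 0.45), its level being 261 and 104 CPM in the *Hand2* or *Tbx20* class. With DESeq2 *Tnnt2* did not pass against SMCs with no regional UMI either (adjusted p = 0.076). *Dlx5* was at 15.4 and 17.3 CPM in SMCs with no regional UMI, at 2.02 and 4.92 CPM in the *Hand2* or *Tbx20* class and at 1.72 and 1.56 CPM in the *Hox* class. Levels of *Adamtsl1* followed the same order of classes by their means, at 35.4 and 30.6, 1.77 and 8.60, and 3.45 and 3.12 CPM, and the last 2 overlapped. *Tnc* was at 59.0 and 53.5 CPM in the *Hox* class and at 10.8 and 7.99 CPM in the *Hand2* or *Tbx20* class, against 2 UMIs in all members.

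**Figure D3:**
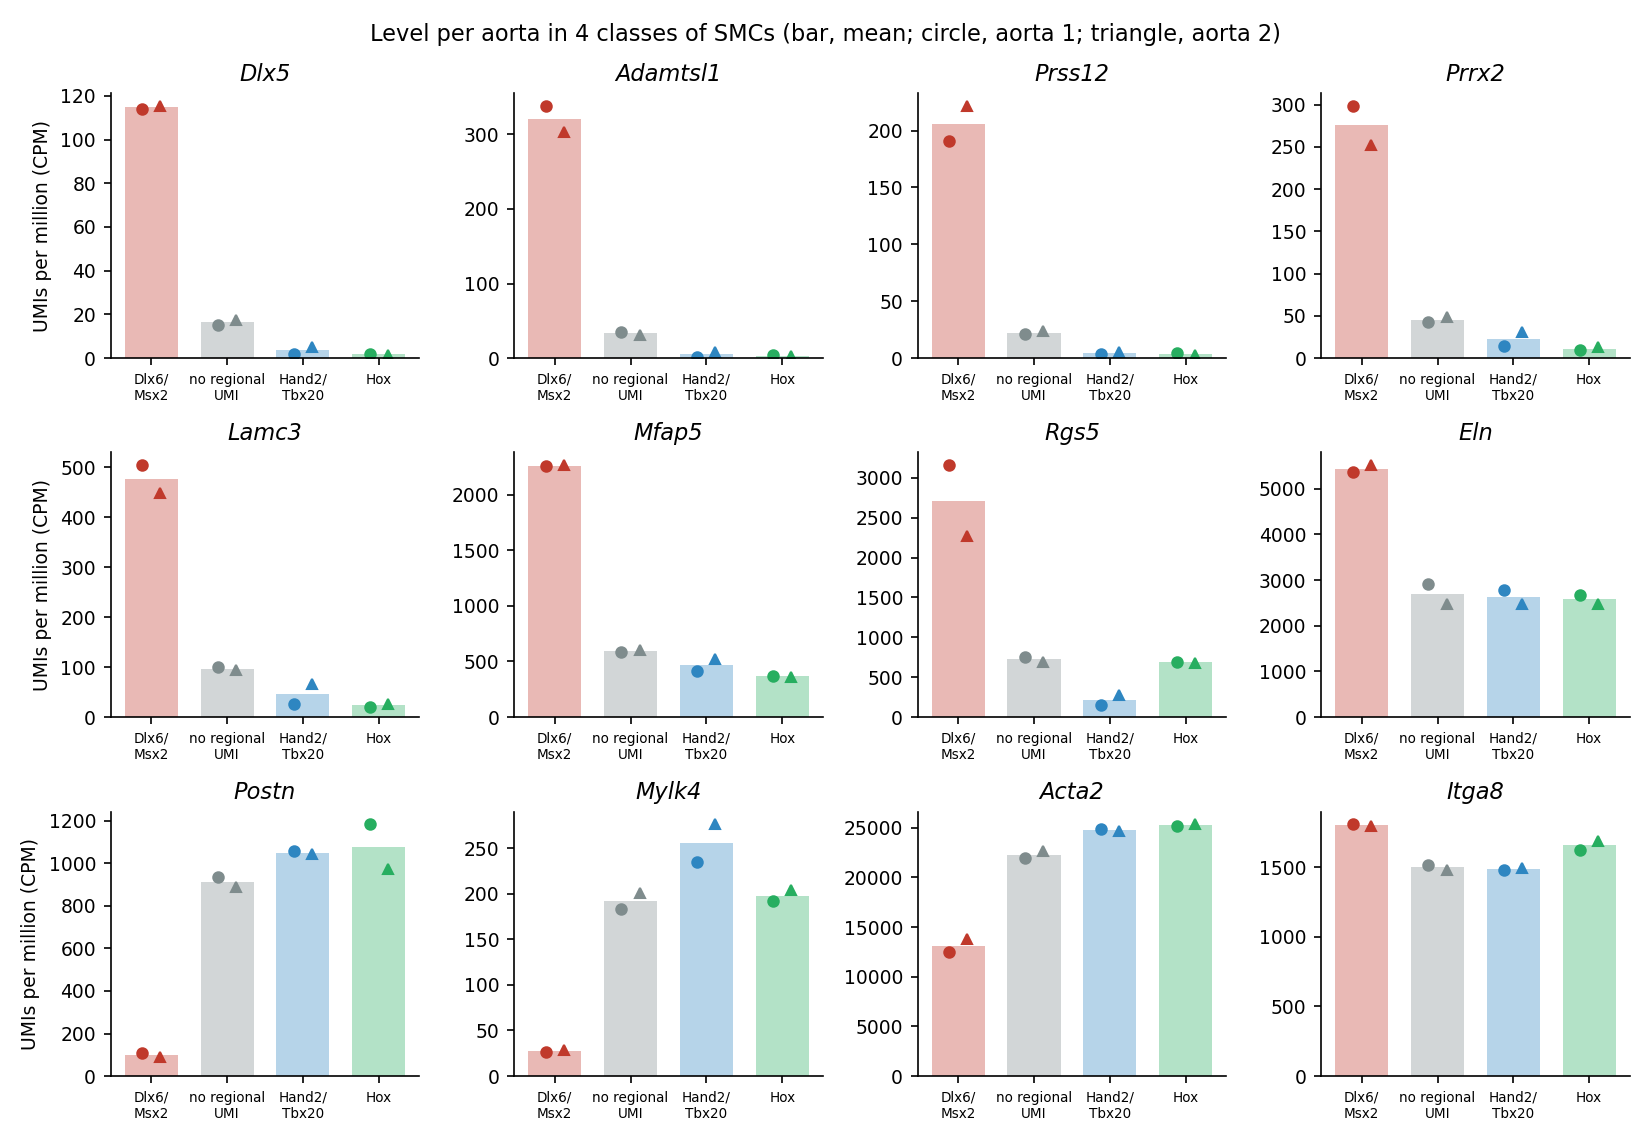
Level of 12 genes in CPM (y axes, from 0) in the UMI sums of 4 classes of gate SMCs, with bars at the mean of the 2 aortas, circles for aorta 1 and triangles for aorta 2. *Dlx5* is at 114 and 115 CPM in members and at 17.3 CPM or less in every other class shown, *Postn* is lowest in members, and the *Itga8* bars are nearly level.

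The 5 largest differences in each direction against single classes came from genes at or near 0 in 1 class. *Krt15* and *Barx1* gave 94 and 49 UMIs in members and none in the *Hand2* or *Tbx20* class, hence were at least 59.97-fold and 31.3-fold higher against a floor of 3 counts over the class, and *Atp2b2*, *Cadm1* and *Slc35f2* at least 21.7, 20.4 and 17.9-fold. *Chrdl2*, *Fgf12*, *Coch*, *Pcsk2* and *Dlx2* had no UMI in the *Hox* class and were at least 47.0, 43.6, 36.8, 26.6 and 25.2-fold higher in members. Against SMCs with no regional UMI the largest increases were *Pde2a*, *Prr16*, *Gm46323*, *Megf10* and *Fgf12*, all with 10 or fewer UMIs in that class. *Pde2a* gave 18 UMIs against 1 (ratio 35.4, counting interval 5.58 to 1474), *Prr16* 22 against 2 (21.6, 5.31 to 190) and *Gm46323* 21 against 2 (20.6, 5.04 to 181). *Rnf152* had no UMI in members and was at least 7.14, 9.64 and 6.28-fold lower than in the *Hand2* or *Tbx20*, *Hox* and no-UMI classes, and *Dusp27* at least 5.92 and 6.79-fold lower than in the first and the last. The other genes so named had no UMI in members either, apart from *Pln*, and were *Inhbb*, *Gm30984*, *Gm37800*, *Mylk2*, *Slc11a1*, *Tmeff2* and *Armc3*. *Gm30984* against the *Hand2* or *Tbx20* class and *Gm37800* against the no-UMI class did not pass in every alternative.

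A single choosing UMI already marked most of the difference in *Dlx5* and *Postn*. Among SMCs without UMIs of the *Hand2*, *Tbx20* and *Hox* genes of the rule, *Dlx5* was at 15.4 and 17.3 CPM in cells with none of the choosing UMIs, 110 and 116 CPM in members with exactly 1, 94.6 and 126 CPM with 2, and 126 and 109 CPM with 3 or more. *Postn* was at 937 and 889.9 CPM, 131 and 127 CPM, 122 and 50.4 CPM, and 85.2 and 67.4 CPM in the same order. The largest step in both genes and both aortas was from 0 to 1 UMI, the threshold of the rule. Of the 15 leading raised genes, the largest rise was from 0 to 1 UMI in 12 in aorta 1, in 9 in aorta 2 and in 6 in both. Among the exceptions, *Chrdl2* in aorta 1 was at 5.64, 29.3, 27.5 and 61.0 CPM and *Krt15* in aorta 2 at 0.78, 11.4, 75.6 and 9.92 CPM. At the other limits, members with 5 to 9 eGFP UMIs (9 and 8 cells) held *Dlx5* at 152 and 72.1 CPM, and cells that met every other condition with 0 to 4 eGFP UMIs (7 and 17 cells) held it at 137 and 114 CPM. Below the limit of 5 UMIs of *Myh11*, *Cnn1* and *Lmod1*, 1 and 2 cells met the other conditions.

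**Figure D4:**
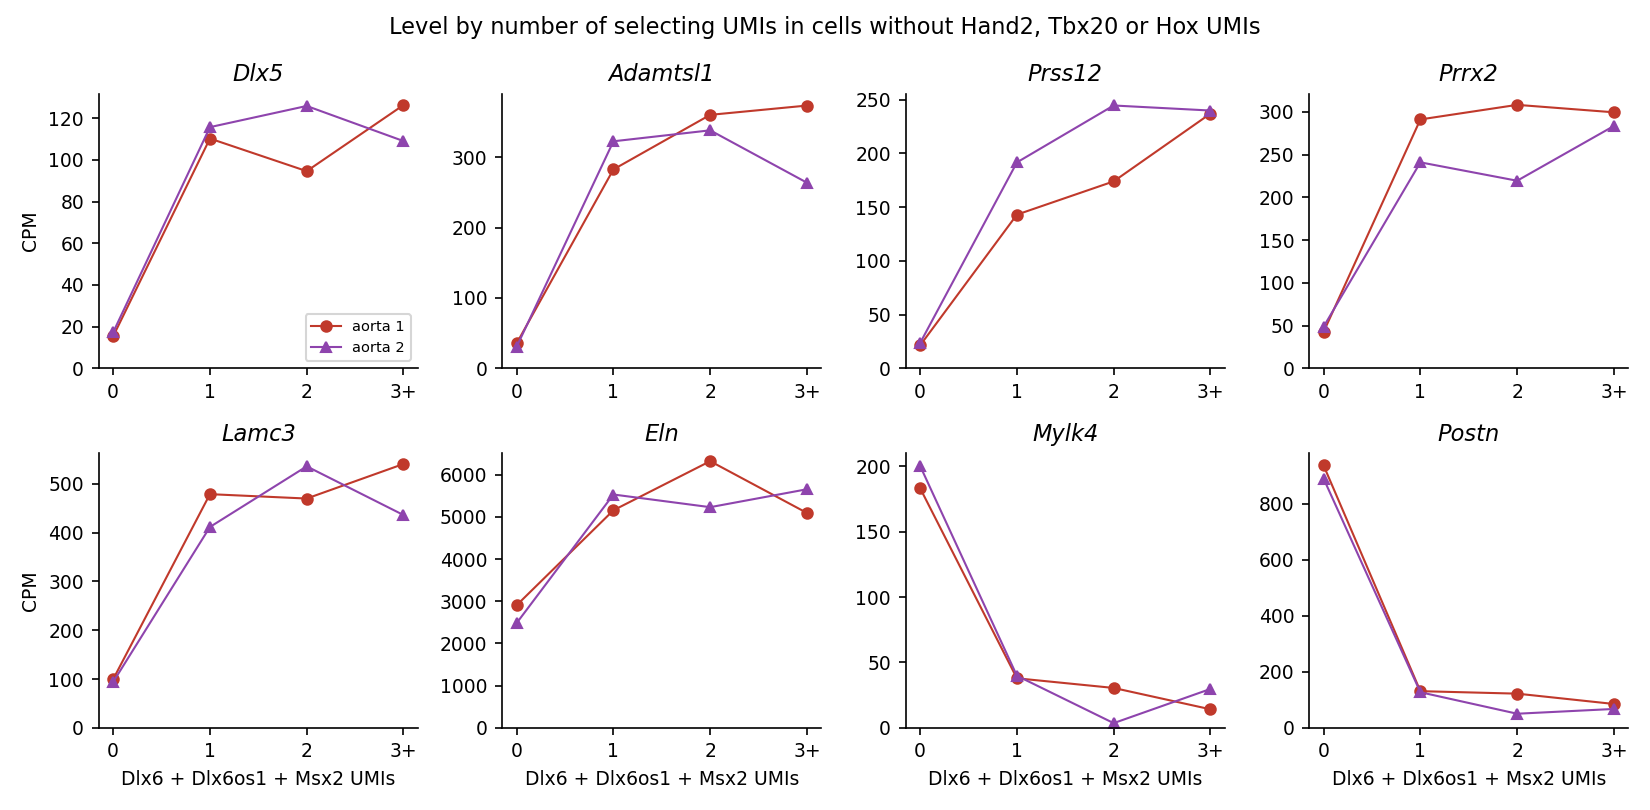
Level of 8 genes in CPM (y axes, from 0) by the number of *Dlx6*, *Dlx6os1* and *Msx2* UMIs per cell (x axes) in SMCs without *Hand2*, *Tbx20* or *Hox* UMIs, 1 line per aorta. The step from 0 to 1 UMI, such as 15.4 to 110 CPM of *Dlx5* in aorta 1, is larger than the later ones in all 8 panels.

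Shares of cells with a UMI were compared after each cell was thinned to 3000 UMIs. A *Dlx5* UMI was found in 35.2% and 29.2% of members (unthinned 60.2% and 53.6%), 4.93% and 5.74% of SMCs with no regional UMI, 0.748% and 1.70% of the *Hand2* or *Tbx20* class and 0.840% of the *Hox* class in aorta 1 and 0 of 210 in aorta 2, which allows up to 1.43%. In leukocytes (at least 2 *Ptprc* UMIs and none of eGFP or the SMC genes, median 5691 and 5862.5 UMIs), a type that should lack it, it was found in 1 of 414 cells (0.242%) and in 0 of 292, which allows a share of up to 1.03%. For *Dlx6*, *Dlx6os1* and *Msx2* together the leukocyte share was 0 of 414 and 0 of 292 cells, which allows up to 0.725% and 1.03%. *Lamc3* was found in 73.0% and 61.9% of members, *Adamtsl1* in 58.7% and 57.1%, *Prrx2* in 52.0% and 47.0%, *Prss12* in 38.3% and 48.2% and *Mylk4* in 3.06% and 4.76%. In SMCs with no regional UMI *Mylk4* was found in 30.8% and 31.4%.

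The 15 leading raised genes were spread over most members. At 3000 UMIs, 14.3% of members in each aorta held none of them, with a median of 3 and 2 genes and a maximum of 8 and 7. SMCs with no regional UMI held none in 83.6% and 85.5% of cells, the *Hand2* or *Tbx20* class in 97.0% and 94.9% and the *Hox* class in 96.2% and 97.1%. At least 3 of the genes were found in 50.5% and 44.0% of members, and in 15 and 17 SMCs with no regional UMI (3.52% and 5.14%). These genes were ranked on the same cells, so the shares describe their spread over cells and are no test.

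**Figure D5:**
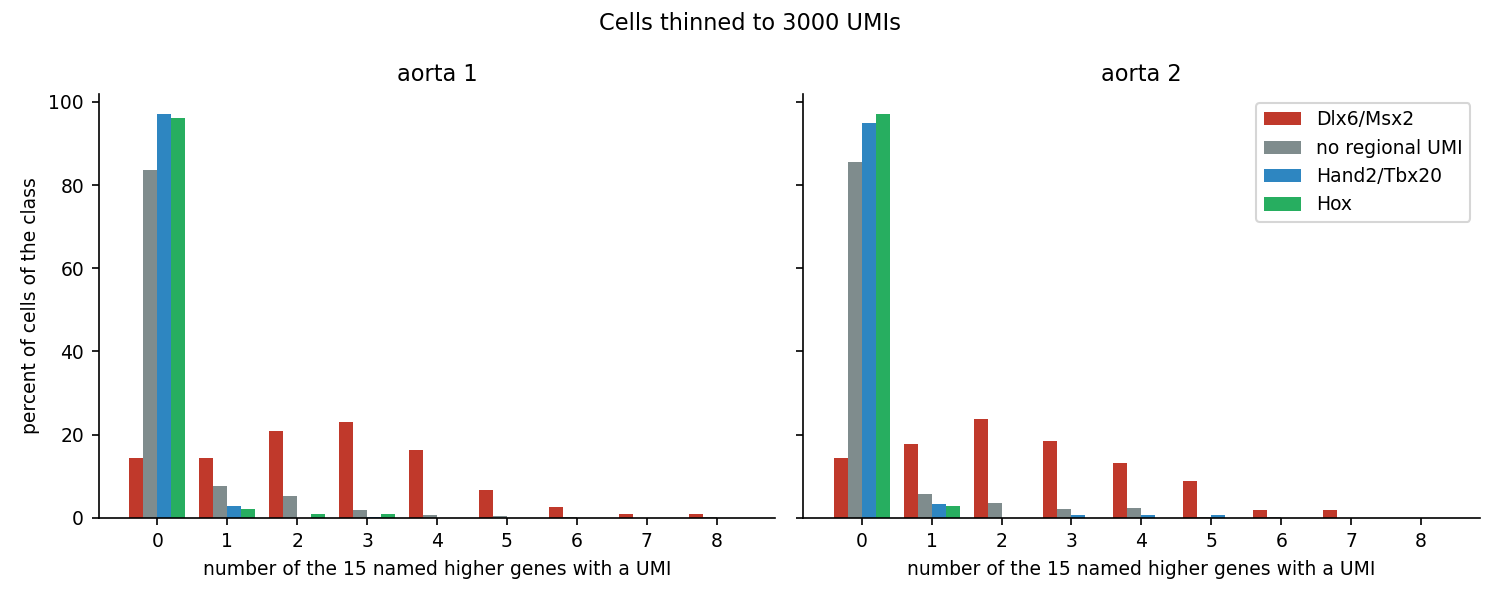
Percent of cells (y axis) by the number of the 15 leading raised genes with a UMI (x axis) in 4 classes of SMCs after thinning to 3000 UMIs, 1 panel per aorta. Members peak at 3 genes in aorta 1 and 2 genes in aorta 2, and over 80% of cells of each other class lie at 0.

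Within the members, the 173 cells with *Dlx6* or *Dlx6os1* alone were compared with the 66 with *Msx2* alone. The latter were 31 and 35 cells in aorta 1 and aorta 2, so few calls cannot show that the subsets are alike. In addition, 152 members held exactly 1 choosing UMI and were placed by that UMI. Of 6204 genes tested 6 were called (0.0967%), all higher in *Msx2*-alone members, among them *Igfbp5*, *Dcn*, *Rbp4*, *Scara5* and *Cdh11*. None passed with DESeq2 (0 genes, 31 at an unadjusted p under 0.05, against 323 in edgeR). *Kcnj8* passed at a smaller size, at 229 and 147 CPM with *Dlx6* alone and 261 and 393 CPM with *Msx2* alone (log2 fold change -0.83 ± 0.19, adjusted p = 0.013). *Cdh11* did not pass with the aorta as a block (adjusted p = 0.089).

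For 3 of these genes, 1 cell of aorta 2 gave most of the UMIs behind the increase. *Dcn*, the proteoglycan decorin, was at 42.8 and 311 CPM with *Msx2* alone and at 97.1 and 33.8 CPM with *Dlx6* alone, so its direction was opposite in aorta 1, and in aorta 2 a single cell gave 43 of the 83 *Dcn* UMIs. Similarly 1 cell gave 24 of 46 *Igfbp5* UMIs and 27 of 32 *Rbp4* UMIs there. No difference was called between the subsets in leading genes of the members: *Dlx5* was at 112 and 123 CPM with *Dlx6* alone, 129 and 120 CPM with *Msx2* alone and 112 and 99.8 CPM with both, a log2 difference of -0.10 ± 0.24 between the first and the second, which did not pass. *Prrx2* was at 286 and 233, 317 and 285, and 305 and 264 CPM, and *Lamc3* at 525 and 433, 441 and 476, and 505 and 453 CPM. *Mylk4* was at 40.6 and 39.9 CPM, 34.3 and 18.7 CPM, and 8.71 and 15.4 CPM in cells with both.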

How the data were processed

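Single cells of 2 mouse thoracic aortas were profiled by droplet RNA sequencing with 3′ chemistry, 1 library per aorta and 1 group. The authors deposited UMI counts per gene and cell, made with Cell Ranger 4.0.0 per the file headers on mm10 with eGFP and tdTomato added; Seurat 4.0 is named in the submitters' processing notes. The strand setting is not given in the sources used here. The files held 8947 and 6263 cells (47009780 and 30919996 UMIs), the numbers the labels state before filtering; the labels state 6278 and 4300 after it, and the study's stated limits left 3919 and 2560 here. The filter used here left 5275 and 3524, and the gate 1306 and 920. The aortas shared 18 cell barcodes. No column of per-sample values was left unused (0).

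UMIs were summed per aorta and class over the gate cells and tested with edgeR 4.0.16 in R 4.3.3 (TMM, filterByExpr, quasi-likelihood), adjusted over all genes tested, with DESeq2 1.42.0 as an alternative. CPM are UMIs per 1000000 UMIs of the sum. With 2 aortas, p-values rest on the spread between 2 animals' sums. Sums of 1 aorta come from the same animal, so they are paired: across genes, the difference between aortas in members correlated with that in the other SMCs at 0.121. The main test left the block out. Doublets were called with Scrublet (scanpy 1.11.5) per aorta and kept in the main test. Shares of cells with a UMI were taken after thinning to 3000 UMIs with a fixed seed. Leukocytes, fibroblasts and endothelial cells were cells that passed the filter with at least 2 UMIs of *Ptprc*, of *Pdgfra* or of *Pecam1* and *Cdh5*, none of the other types' genes and no UMI of eGFP or the SMC genes. The scripts were tested on simulated data with known fold changes.

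Named genes were the 15 largest differences each way among called genes with at least 20 CPM in the higher class in each of the 2 aortas and the same direction in both, the 4 largest of each list at an adjusted p under 0.05, 9 fixed genes, the 5 largest each way against each class, and the called genes within the members. *Sox9*, *Sh3gl2*, *Cep85l*, *Cspg4*, *Hoxb2* and other list members named without a place in this rule were chosen after their values were seen. The members and lists were chosen with earlier results of these data known. Gene positions are from GENCODE M21 and upstream sequences from RefSeq (GRCm38.p6). Some genes that met the rule are not reported here.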

Additional observations from a re-analysis of the deposited data

Results flagged for a closer look

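RNA of the choosing genes was also captured outside the SMCs. Among endothelial cells thinned to 3000 UMIs, 12 of 182 in aorta 2 held a *Dlx6*, *Dlx6os1* or *Msx2* UMI (6.59%, exact 95% interval 3.45 to 11.2%), above the leukocytes of the same aorta, where 0 of 292 did (up to 1.03%). In aorta 1 it was 5 of 218 (2.29%, 0.749 to 5.27%) against 0 of 414 leukocytes. The endothelial UMIs were of *Dlx6* (7 and 4 cells in aorta 2 and aorta 1) and *Dlx6os1* (5 and 2 cells), and no endothelial cell held *Msx2* at this depth. What brought this signal into the endothelial cells was not tested.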

How the results depend on the processing

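Between members and the other SMCs, 961 genes were called, and 652 to 1091 under the alternatives (652 with thinned cells, 700 with DESeq2, 1025 with the aorta as a replicate block, 1091 with no gene filter), with 1 exception. Members defined by *Msx2* without *Dlx6* (31 and 35 cells, with the remaining members moved into the other SMCs) gave 362 called genes, and there *Itga8* turned to -0.11, not past the threshold in either. With cells thinned to 3000 UMIs the calls fell from 944 to 616 against the *Hox* class and from 670 to 432 against SMCs with no regional UMI, with fewer genes tested (7950 against 10608). Members from 2 UMIs gave 447 against the last class. Within the members, 6 genes were called, 5 with the block and 0 with DESeq2, and *Dcn* was at -3.20 in aorta 2 alone and turned to 1.18 in aorta 1 alone. The mean member share was 16.6%, 9.61% with at least 2 UMIs and 10.6% with the rule on thinned cells, and 15.01% to 18.3% in single aortas. Of 2489 gene results under alternatives, 2371 kept their direction and side of the threshold, 116 kept the direction and no longer passed, 1 newly passed and 1 reversed among tested ones. Apart from the list counts given above and *Cdh11*, the block changed no other call of a named gene. Each aorta alone leaves 1 sum per class, hence values with no test. Precision is limited by 2 aortas and, for the genes given with a counting interval, by their few UMIs.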

Other observations

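*Dlx5* UMIs were also found outside the SMCs. At 3000 UMIs they were in 18 of 218 and 5 of 182 endothelial cells (8.26% and 2.75%) and in 8 of 351 and 8 of 306 fibroblasts (2.28% and 2.61%), against 1 of 414 and 0 of 292 leukocytes. SMCs with UMIs of more than 1 regional gene group (45 and 35 cells) held none of the 15 leading raised genes in 60% and 62.9% of cells, and the doublet caller marked 3 and 2 of them.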
